A study of Homo sapiens and Mus musculus with 7 samples.

Results

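Erythroid and megakaryocytic transcription factors are described here as 10 genes of 14920 in the expression table: GATA1, GATA2, ZFPM1, TAL1, LMO2, LDB1, KLF1, NFE2, GFI1B and MYB. They were chosen by name, as factors known from red cell and platelet formation, and all 10 were found, with 24 deposited RefSeq transcripts between them. Each was measured by RNA-seq in HEL cells, an established human erythroleukaemia line that carries features of both red cell and platelet precursors. The groups crossed KAP1 knockdown (KAP1 KD in the labels) or control cells with no hemin or hemin at 50 µM for 5 days, and each of the 4 groups was 1 library. The control columns are headed Ctrl and the samples are labelled KAP1 WT, and every knockdown ratio rests on matching these names. The labels do not say by which construct the knockdown was made, or whether a line was a clone. No difference below has a replicate check, and no p-value is given.

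These factors form a network that switches blood progenitors towards red cells or platelets. GATA1 and GATA2 are zinc finger proteins that bind the same DNA motif. GATA2 acts in progenitors and mast cells and is replaced by GATA1 as red cells mature, an exchange known as the GATA switch, for which GATA1 needs its cofactor FOG1, the product of ZFPM1. TAL1 binds DNA beside GATA1 and is joined to it by the bridging proteins LMO2 and LDB1, and LDB1 holds distant enhancers and promoters together. KLF1 turns on adult globin and other red cell genes, NFE2 acts late in both lineages and is needed for platelet release, GFI1B represses genes in both, and MYB keeps progenitors dividing. KAP1, the product of TRIM28, is a corepressor that KRAB zinc finger proteins bring to DNA.

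Levels are given as scaled TPM, which are reads per transcript length after libraries were brought to equal effective depth, with a mean library sum of 1000000. Where a gene has several deposited transcripts, the most abundant on average stands for it. Depth was between 24015883 and 42086608 reads on these transcripts per library. TRIM28 (NM_005762) was at 317 and 190 scaled TPM in the knockdown without and with hemin, against 421 and 400.0 in the control. The log2 ratio of knockdown to control for TRIM28 was -0.41 without hemin and -1.07 with hemin. Whether this unequal ratio bears on knockdown ratios that differ between the hemin states was not tested. The TRIM28 row was deposited as whole numbers, unlike the rows of the 10 factors, and it checks the labels only weakly. Of 6 platelet lineage markers, ITGA2B, the platelet integrin chain, was at 874 to 1989 scaled TPM, and its partner ITGB3 at 154 to 360.4. GP9 was at 155 to 260 and PF4 at 14.5 to 68.7. The lowest were PPBP at 1.34 to 6.95 and GP1BB at 2.92 to 11.6. Between 4 and 6 of the 6 reached 5 scaled TPM in a library.

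Promoter windows of 4 of the factors are shown because these genes carry the main differences below: ZFPM1 and GATA2 differed with the knockdown, and KLF1 and LDB1 differed with hemin in control cells. Each runs from 250 bases before to 50 after the start of a RefSeq gene model (GRCh38.p14), and 8 of the 10 factors were matched, with 11 windows. The 4 windows are chr16:88453030-88453329 (ZFPM1, plus strand), chr3:128493152-128493451 (GATA2, minus strand, the first of its 2 windows), chr19:12887152-12887451 (KLF1, minus strand) and chr10:102114953-102115252 (LDB1, minus strand). Capitals mark a GATA motif (the form AGATAA, the form AGATAG, the form TGATAA or the form TGATAG) or a CACCC-type motif (CCNCNCCC, the kind that KLF1 binds), on either strand, and capitals run on where matches overlap.
ZFPM1: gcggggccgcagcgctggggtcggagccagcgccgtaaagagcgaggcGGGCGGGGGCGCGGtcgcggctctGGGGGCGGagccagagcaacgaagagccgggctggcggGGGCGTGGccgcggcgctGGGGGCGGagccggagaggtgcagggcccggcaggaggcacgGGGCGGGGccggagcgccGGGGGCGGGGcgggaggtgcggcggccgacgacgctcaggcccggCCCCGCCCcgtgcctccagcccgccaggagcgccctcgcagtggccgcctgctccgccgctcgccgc
GATA2: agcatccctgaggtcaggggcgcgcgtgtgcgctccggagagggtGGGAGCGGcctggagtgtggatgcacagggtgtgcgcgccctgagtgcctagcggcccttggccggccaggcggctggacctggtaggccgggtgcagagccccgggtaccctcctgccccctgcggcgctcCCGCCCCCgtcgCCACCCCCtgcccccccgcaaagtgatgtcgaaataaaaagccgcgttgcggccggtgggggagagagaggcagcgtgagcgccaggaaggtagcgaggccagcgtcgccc
KLF1: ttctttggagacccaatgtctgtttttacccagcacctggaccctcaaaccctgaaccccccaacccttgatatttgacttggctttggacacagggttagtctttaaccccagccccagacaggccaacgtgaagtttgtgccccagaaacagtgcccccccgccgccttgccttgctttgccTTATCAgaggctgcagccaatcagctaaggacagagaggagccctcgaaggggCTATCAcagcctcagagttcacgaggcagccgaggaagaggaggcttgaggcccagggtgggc
LDB1: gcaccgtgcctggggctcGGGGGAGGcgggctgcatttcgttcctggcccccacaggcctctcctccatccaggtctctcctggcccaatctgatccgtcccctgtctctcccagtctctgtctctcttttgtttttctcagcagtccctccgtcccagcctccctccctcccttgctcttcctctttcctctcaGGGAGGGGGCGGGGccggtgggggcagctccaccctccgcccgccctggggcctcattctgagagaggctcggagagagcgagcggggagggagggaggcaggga
The KLF1 window held 2 GATA motifs, whose first bases lie 66 and 13 bases before the start, and no CACCC-type motif. In the ZFPM1 window, 83.0% of bases were G or C, with 9 CACCC-type matches and 0 GATA motifs. The first GATA2 window had 3 CACCC-type matches and the LDB1 window 4, with no GATA motif in either. The second GATA2 window, not shown, had 7 CACCC-type matches and no GATA motif. Which of these windows belongs to the measured GATA2 transcript was not examined. Over all 11 windows, a GATA motif was present in 4, from KLF1, TAL1 and GFI1B, while 25.0% of 35114 windows in the whole table held at least 1. A CACCC-type motif was present in 8 of the 11 and in 56.2% of all windows. An E-box (CANNTG, the kind that TAL1 binds) was present in 5 of 11 and in 68.7% of all, and TGANTCA, the core that NFE2 binds, in 1 of 11 and in 7.71% of all. A match is a description of the letters only.

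All 10 factors were above 5 scaled TPM in at least 1 library of every comparison, the limit used for counting differences. GATA2 had the highest mean level, above those of 98.7% of genes, followed by NFE2, LDB1, GFI1B, GATA1, TAL1, KLF1, LMO2, ZFPM1 and MYB. MYB was far below the others, with a mean of 8.73 scaled TPM against 42.9 for ZFPM1 and 583 for GATA2. The order differed between libraries. In both control libraries GATA2 came first, and in both knockdown libraries NFE2 did. In the control without hemin LDB1 (379 scaled TPM) and GFI1B (376) could not be told apart within counting error. In the knockdown without hemin the same held for GATA1 (358) and LDB1 (344), and for LMO2 (83.6) and ZFPM1 (80.8). With hemin, GFI1B (287) and GATA1 (283) could not be told apart in the knockdown.

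**Figure D1:**
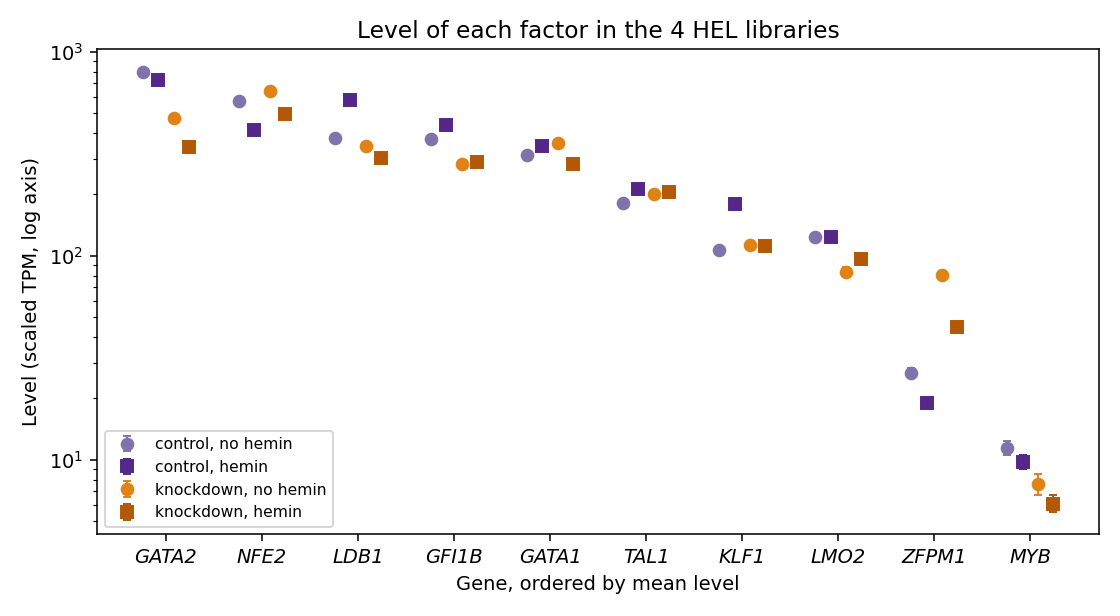
Level of the 10 factors (x axis, ordered by mean) in scaled TPM on a log axis, with 1 point per library and bars for the 95% counting interval, mostly smaller than the point. ZFPM1 is higher and GATA2, LDB1, GFI1B, LMO2 and MYB are lower in both knockdown libraries than in both control libraries.

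Between libraries, ZFPM1 varied most, over a 4.24-fold range, and TAL1 least, over a 1.17-fold range. As log2 values with 0.5 added to the level, the median range of all 11162 genes that reached 5 in some library was 0.73. ZFPM1 spanned 2.05, wider than 96.3% of these genes, GATA2 1.22 and LDB1 0.95. TAL1 spanned 0.22, which only 3.62% of genes fell under, and GATA1 0.34.

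After knockdown, 1 factor was at least 2-fold higher in both hemin states, ZFPM1, and 1 was at least 2-fold lower, GATA2 in cells with hemin. The background without hemin was 6.74% of all genes past 2-fold upwards and 6.43% downwards, or 13.2% either way. With hemin it was 5.99% and 4.13%, or 10.1% either way. In both states 2.77% of genes passed 2-fold upwards and 2.07% downwards. The median log2 ratio of the 10 factors was -0.03 without hemin and -0.48 with hemin, where all genes had medians of 0.03 and 0.01. Both knockdown libraries lay below both control libraries for 5 factors, GATA2, LMO2, LDB1, GFI1B and MYB, and above them for ZFPM1. With plain library totals, which set the summed levels of all libraries equal and are not read totals, TAL1 also lay above. Such separation is common here: 24.6% of all genes lay below and 27.5% above, 52.2% in all, so these counts describe the factors and do not set them apart.

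Without hemin, ZFPM1 (NM_153813) was at 80.8 scaled TPM after knockdown against 26.8 in control cells, and with hemin at 44.9 against 19.1. Every knockdown value was above every control value, and within each kind of cell the library with hemin was the lower. The log2 ratio of knockdown to control was 1.58 without hemin, with a 95% counting interval of 1.50 to 1.69. With hemin it was 1.21, with an interval of 1.13 to 1.33. These exact binomial intervals hold the counting error of the reads and no variation between cultures. They were computed from reads without the 0.5 added to levels for the ratios, so a ratio can lie off their centre. The reads behind them numbered 3077 and 1384 without hemin and 3056 and 1127 with hemin.

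The 5 genes whose pattern over the 4 libraries was closest to that of ZFPM1, by Euclidean distance between centred log2 values, were POLD1, TUBA4B, RP11-181C3.2, SAPCD2 and GIPC1. Their distances ran from 0.13 to 0.18 among 11161 genes compared. POLD1, the catalytic subunit of DNA polymerase delta, was at 129 and 73.4 scaled TPM in the knockdown without and with hemin, and at 48.4 and 32.6 in the control. Likeness over 4 libraries says nothing of shared function or control.

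**Figure D2:**
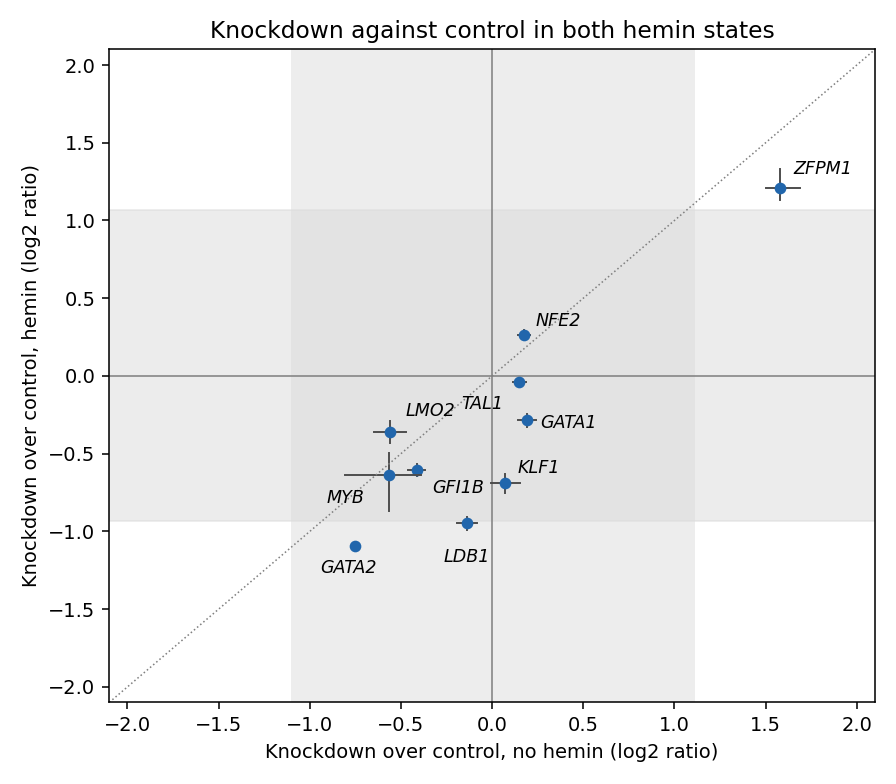
Log2 ratio of knockdown over control for each factor, without hemin (x axis) and with hemin (y axis), with lines for the 95% counting interval, grey bands for the 5th to 95th percentile of all genes and a dotted line of equal values. ZFPM1 lies at 1.58 and 1.21, and GATA2, LDB1 and KLF1 lie at -1.09, -0.95 and -0.69 on the y axis.

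GATA2 (NM_001145662) had the lowest knockdown ratio of the 10 in both states. It was at 472 scaled TPM after knockdown against 794 in control cells without hemin, and at 340.1 against 725 with hemin, so the knockdown libraries did not overlap with the control libraries. The log2 ratio was -0.75 (counting interval -0.78 to -0.73) without hemin and -1.09 (-1.12 to -1.07) with hemin. With plain library totals (summed levels) in place of the trimmed scaling the second value was -0.99, just inside the 2-fold limit. Read totals without the trimming factor were not run. The 3 deposited transcripts of GATA2 gave ratios of -0.78 to -0.75 and of -1.09 to -1.08, but their read numbers are so alike that they share most of their reads.

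GATA1 (NM_002049) stayed within a narrow range, at 358 scaled TPM after knockdown against 314 in control cells without hemin, and at 283 against 345 with hemin. Knockdown and control overlapped: the highest and the lowest value both came from knockdown cells. The log2 ratio was 0.19 (0.14 to 0.24) without hemin and -0.28 (-0.33 to -0.24) with hemin. With plain library totals these were 0.30 and -0.18, with the same signs.

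GATA2 varied over a 2.33-fold range and GATA1 over a 1.26-fold range, and their ratio differed accordingly. The GATA1 to GATA2 ratio was 0.395 in the control without hemin (counting interval 0.386 to 0.405) and 0.476 in the control with hemin (0.465 to 0.486). In the knockdown it was 0.758 (0.737 to 0.781) without and 0.832 (0.812 to 0.853) with hemin. GATA2 exceeded GATA1 in all 4 libraries, by the least in the knockdown with hemin. In both kinds of cell the ratio was higher with hemin, by less than the gap between knockdown and control. When all deposited transcripts were summed, GATA2 counted its shared reads in each of 3 rows, and the ratio ran from 0.132 to 0.280 in the same order of libraries.

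**Figure D3:**
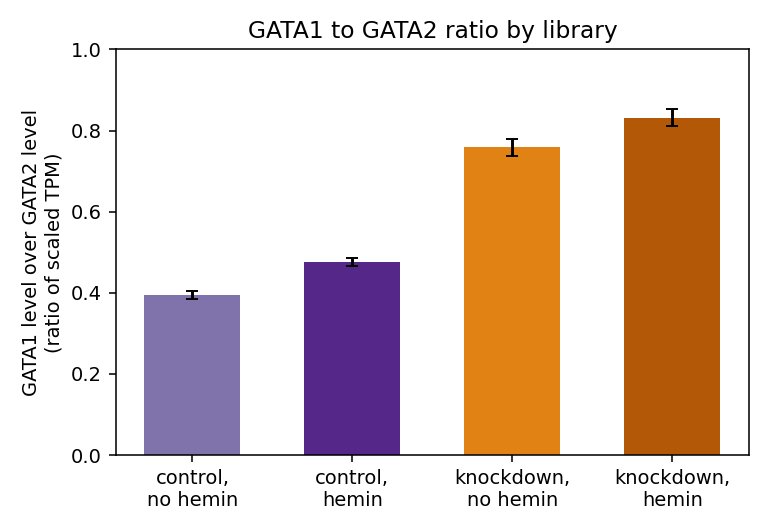
Ratio of the GATA1 level to the GATA2 level in scaled TPM (y axis, from 0) in each of the 4 libraries, 1 bar per library, with lines for the 95% counting interval. Control bars stand at 0.395 and 0.476 and knockdown bars at 0.758 and 0.832.

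Of the TAL1 complex, TAL1 itself had the smallest range over the 4 libraries, though LDB1 differed slightly less with the knockdown without hemin. TAL1 (NM_003189) was at 202 scaled TPM after knockdown against 182 in control cells without hemin, and at 206 against 212 with hemin. Without hemin the log2 ratio was 0.15 (0.11 to 0.18). With hemin it was -0.04 (-0.07 to -0.01), and plain library totals turned that sign, to 0.06. LMO2 (NM_001142315) was lower in both knockdown libraries, at 83.6 against 123 scaled TPM without hemin and 96.4 against 124 with hemin. Its log2 ratios were -0.56 (-0.65 to -0.47) and -0.36 (-0.43 to -0.29). The 3 LMO2 transcripts ranged from -0.56 to -0.52 and from -0.36 to -0.31.

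LDB1 (NM_001113407) was lower after knockdown by far more with hemin than without. It was at 344 scaled TPM against 379 in control cells without hemin, and at 301 against 581 with hemin. The control library with hemin was apart from the other 3, which lay between 301 and 379. The log2 ratio was -0.14 (-0.19 to -0.08) without hemin and -0.95 (-0.99 to -0.90) with hemin. With plain library totals the first was -0.02. The second transcript of LDB1 gave -0.11 and -0.98. The reads recovered for the chosen transcript of LDB1 may be a whole fraction of the true number, in which case its intervals are too wide.

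KLF1 (NM_006563) had a like pattern, at 113 scaled TPM after knockdown against 107 in control cells without hemin, and at 111 against 179 with hemin. Again the control library with hemin was the high value, and the other 3 were within 107 to 113. Without hemin the log2 ratio was 0.07, and its counting interval of -0.01 to 0.16 held 0. With plain library totals this value was 0.19. With hemin it was -0.69 (-0.75 to -0.63).

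NFE2 (NM_001136023) was slightly higher in the knockdown, at 647 against 573 scaled TPM without hemin and at 498 against 415 with hemin. The log2 ratios were 0.18 (0.14 to 0.21) and 0.26 (0.23 to 0.30), and 0.29 and 0.36 with plain library totals. Knockdown and control overlapped, since the control without hemin was above the knockdown with hemin. GFI1B (NM_004188) was lower in both knockdown libraries, at 282 against 376 without hemin and 287 against 437 with hemin. Its log2 ratios were -0.41 (-0.46 to -0.37) and -0.60 (-0.64 to -0.57), and both of its transcripts gave between -0.44 and -0.41 and between -0.61 and -0.60.

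MYB (NM_001161659) was low throughout, at 7.57 scaled TPM after knockdown against 11.5 in control cells without hemin, and at 6.10 against 9.78 with hemin. Both knockdown values were below both control values. The log2 ratio was -0.57 (-0.81 to -0.39) without hemin and -0.64 (-0.87 to -0.50) with hemin, from 285 to 586 reads per library, the fewest of any factor. Of its 8 deposited transcripts, NM_001161659 and NM_005375 had nearly the same reads, so these rows are not independent. Across the 8 the ratios ran from -0.58 to 0.09 and from -0.68 to 0.35. The value of 0.09 came from NM_001161657, with 13 and 15 reads, and that of 0.35 from NM_001161656, with 145 and 91.

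With hemin against no hemin, no factor differed 2-fold in either kind of cell. The background in control cells was 2.60% of all genes past 2-fold upwards and 2.59% downwards, or 5.19% either way, and in knockdown cells 2.30% and 1.71%, or 4.01%. In both kinds of cell 0.573% of genes passed upwards and 0.545% downwards. The median log2 ratio of the factors was 0.07 in the control and -0.24 in the knockdown, where all genes had medians of -0.01 and 0.00. In the control, 5 factors had a counting interval above 0 and 4 below it. In the knockdown 2 were above and 6 below. The share of all genes past counting error was not computed, so these counts do not set the factors apart. Deep counts let small ratios pass, such as that of TAL1 in the knockdown, at 0.03.

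The factors that were higher with hemin in control cells were KLF1 at a log2 ratio of 0.74 (0.67 to 0.81), LDB1 at 0.62 (0.57 to 0.66), TAL1 at 0.22, GFI1B at 0.22 and GATA1 at 0.14. In knockdown cells KLF1 was at -0.02 (-0.10 to 0.06), LDB1 at -0.19 (-0.25 to -0.14), TAL1 at 0.03, GFI1B at 0.03 and GATA1 at -0.34 (-0.39 to -0.29). These 5 were picked by their value in control cells. Over all 10 factors the knockdown minus control difference was below 0 for 8 and above 0 for LMO2 (0.20) and NFE2 (0.09). The median difference was -0.27 for the 10 factors and 0.01 for all genes. The share of all genes below 0 was not computed, so this count does not set the factors apart. The difference of the log2 ratios, knockdown minus control, was -0.76 for KLF1 (-0.86 to -0.66) and -0.81 for LDB1 (-0.88 to -0.74). GATA1 had -0.47 (-0.54 to -0.41). The intervals of these differences are normal approximations from the reads of the 4 libraries, not exact binomial ones. TRIM28 itself had a difference of -0.66, and whether this bears on the factors was not tested. With 1 library per group the difference of a factor has no residual spread to test it against. It reached 2-fold for none of the 10 factors, against 3.35% of all genes upwards and 2.88% downwards, or 6.24% in all.

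Lower with hemin in both kinds of cell were ZFPM1, NFE2, GATA2 and MYB. ZFPM1 had log2 ratios of -0.48 (-0.60 to -0.37) in control cells and -0.84 (-0.92 to -0.78) after knockdown. NFE2 had -0.46 (-0.50 to -0.43) and -0.38 (-0.41 to -0.34), and both of its hemin libraries lay below both libraries without hemin. For TAL1 both lay above, though not with plain library totals. Of all genes 14.6% lay below and 17.6% above, 32.1% in all. GATA2 had -0.13 in control cells and -0.47 after knockdown, and MYB -0.22 and -0.29. LMO2 had 0.00 in the control, with an interval of -0.06 to 0.07, and 0.21 (0.12 to 0.29) in the knockdown.

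**Figure D4:**
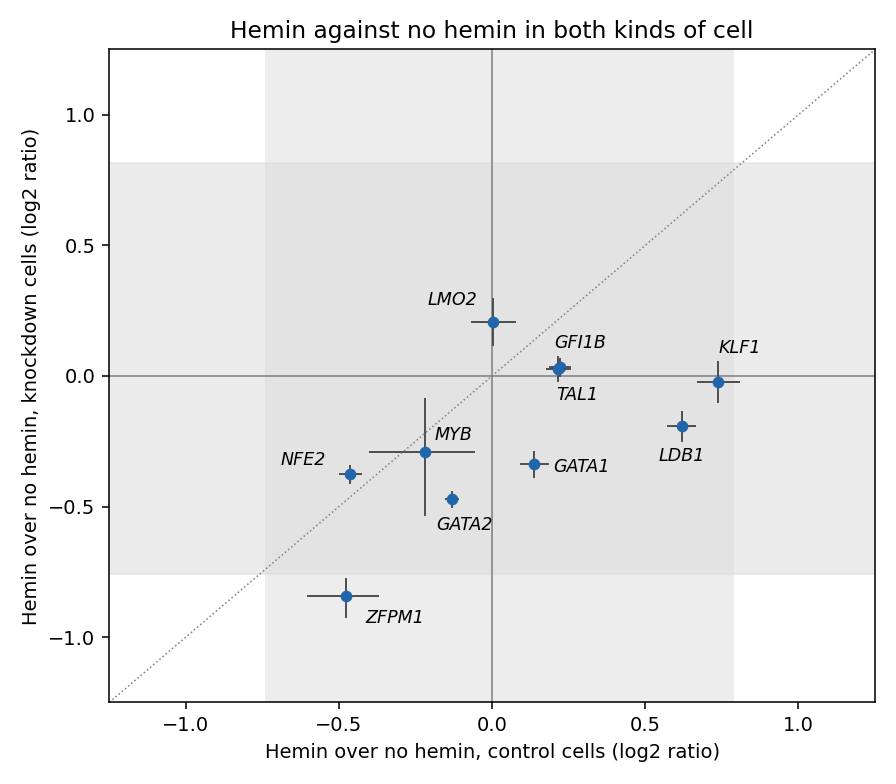
Log2 ratio of hemin over no hemin for each factor in control cells (x axis) and knockdown cells (y axis), with lines for the 95% counting interval, grey bands for the 5th to 95th percentile of all genes and a dotted line of equal values. KLF1 and LDB1 lie at 0.74 and 0.62 on the x axis but at -0.02 and -0.19 on the y axis.

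For the lists from here on, the background is the share of all genes past 2-fold. After knockdown it was 6.74% upwards and 6.43% downwards without hemin, and 5.99% and 4.13% with hemin. For hemin it was 2.60% and 2.59% in control cells, and 2.30% and 1.71% in knockdown cells. The lists were chosen with earlier results of these data known, so their counts are descriptions only. Partners of these factors were looked at as a list of 25 genes, of which 23 reached the limit. None was 2-fold apart after knockdown without hemin, and with hemin 0 were higher and 2 lower, MAFG and MAFF. Both encode small MAF proteins, which pair with NFE2 to bind DNA, and they were singled out after their values were seen. MAFK, another small MAF gene of the list, was within 2-fold, with log2 ratios of 0.61 without hemin and -0.21 with hemin. MAFG was at 66.3 and 88.1 scaled TPM in the knockdown without and with hemin, and at 79.0 and 186 in the control. MAFF was at 8.51 and 4.50 in the knockdown and at 9.77 and 14.0 in the control. The median log2 ratio of the list was 0.17 without and -0.21 with hemin. Hemin in control cells left MAFG alone past 2-fold, at a log2 ratio of 1.23, against 0.41 in the knockdown.

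Other blood lineage transcription factors numbered 30, of which 23 reached the limit for each knockdown comparison. Without hemin 3 were higher and 0 lower, and with hemin 2 were higher and 1 lower. MYBL2, a relative of MYB that acts in dividing cells, was higher in both, at 108 against 35.2 scaled TPM without hemin and 60.6 against 12.1 with hemin. E2F2, a cell cycle factor, was at 26.1 against 12.4 and 19.7 against 9.16. The median log2 ratios of this list were -0.08 and 0.12.

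Red cell genes known as targets of GATA1, TAL1 and KLF1 formed a list of 38, of which 33 reached the limit in the knockdown comparisons. Without hemin 5 were higher and 4 lower, with a median log2 ratio of 0.18, and with hemin 5 were higher and 3 lower, with a median of 0.02. HBA1 and HBA2, the near-identical alpha globin genes whose reads the counting may have split, were higher in both states, with HBA2 at 2226 against 902 scaled TPM without hemin. RHD, the Rh blood group gene, whose reads may be shared with its near copy RHCE, was at 108 against 31.1 without hemin and 121 against 52.5 with hemin. EPB49, a membrane skeleton gene, was at 38.9 against 18.8 and 39.3 against 17.5. EPOR, the erythropoietin receptor gene, was lower, at 20.5 against 49.1 and 28.2 against 78.3. With hemin 11 of 33 were higher and 2 lower in the control, and 6 of 32 higher and 0 lower in the knockdown. The fetal globin gene HBG2 was at 28733 with and 6982 without hemin in the control, and at 32664 and 7216 in the knockdown, and its near-identical copy HBG1 was also past 2-fold in both. The embryonic globin gene HBE1 was at 2027 and 273 in the control and 1497 and 452 in the knockdown.

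Platelet lineage targets formed a list of 24. In the knockdown without hemin 4 of 23 were higher and 3 lower, with a median log2 ratio of -0.17, and with hemin 11 were higher and 1 lower, with a median of 0.73. With a limit of 20 scaled TPM the last median was 0.43. Of all genes, 6.74% were higher and 6.43% lower without hemin, and 5.99% and 4.13% with hemin. THBS1, a platelet granule protein gene, was higher in both states, at 72.6 against 4.28 and 209 against 4.83 scaled TPM. TREML1, a platelet receptor gene, was at 91.7 against 18.5 and 86.6 against 8.51, and MYL9, a myosin light chain gene, at 46.2 against 8.95 and 43.0 against 6.48. CLEC1B was at 5.38 against 0.383 and 5.13 against 1.57. CD9 was lower, at 4.32 against 15.0 and 5.40 against 16.2. Hemin in control cells left 8 of 21 lower and 1 higher, and in knockdown cells 0 of 23 lower and 3 higher. SRGN, a granule proteoglycan gene, was higher with hemin in both, at 322 against 150 and 187 against 67.8.

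Progenitor genes and known MYB targets formed a list of 20, of which 14 reached the limit in the knockdown comparisons. Without hemin 2 were higher and 1 lower, with a median log2 ratio of 0.37, and with hemin 5 were higher and 1 lower, with a median of 0.31. KIT, the stem cell factor receptor gene and a target of GATA2 and TAL1, was at 13.7 and 29.6 scaled TPM in the knockdown without and with hemin, and at 32.7 and 144 in the control. It was lower in the knockdown in both states and higher with hemin in both kinds of cell. MYCN was at 48.0 against 10.6 without hemin and 30.2 against 9.68 with hemin, and the cyclin gene CCNB1 at 83.7 against 26.6 and 82.7 against 31.0. BCL2, which blocks cell death, was lower with hemin in both kinds of cell, at 1.59 against 9.45 in the control and 2.76 against 7.48 in the knockdown. For hemin, 1 of 14 was higher and 2 lower in the control, and 1 of 15 higher and 1 lower in the knockdown. The median log2 ratios for hemin were -0.06 and -0.05.

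Markers of another lineage also differed with the knockdown. Of 8 mast cell and eosinophil markers, 7 were in the table, and their summed level was 2366 to 2649 scaled TPM in the control and 681 to 999 in the knockdown. In the knockdown that sum was mostly HDC, the histamine-forming enzyme gene, at 656 and 954 against 1148 and 1594 in the control, which is within 2-fold. Of the 6 at the limit, 5 were at least 2-fold lower without hemin and 4 with hemin, and none was higher. Of all genes, 6.43% were lower without hemin and 4.13% with hemin. PRG2, an eosinophil granule gene, was at 6.82 against 1345 without hemin and 10.6 against 647 with hemin. The tryptase gene TPSAB1 was at 0.357 against 13.8 and 0.876 against 15.4. TPSB2 and CPA3 were also lower in both states. No value in the table is 0. Fewer cells of a type and less RNA per cell cannot be told apart in bulk RNA, and the part of these markers in the GATA2 result was not tested. The 5 monocyte and granulocyte markers in the table summed to between 69.2 and 193 scaled TPM. Of the 3 at the limit, 1 was at least 2-fold lower in each hemin state, CD68, at 12.0 against 33.6 and 21.5 against 114. The other 2 were within 2-fold. LYZ was slightly higher, at 51.7 against 47.0 and 80.0 against 70.8, and ITGAM lower, at 4.76 against 6.16 and 3.59 against 6.78. CD79A, the only lymphoid marker of 4 in the table, was at 3.33 to 28.0.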

How the data were processed

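The authors deposited RNA-seq values in RPKM for 24538 RefSeq transcripts, per the file headers. These values were not scaled to depth. Relative to the knockdown without hemin, the value of 1 read was 1 to 1.10, while reads ran from 24015883 to 42086608 per library. The submitters' processing notes name Bowtie and hg19 without versions; counting rules are not stated there. The deposited RPKM are whole reads times a step, so reads were recovered for 24533 rows (tolerance 0.0002 reads plus a relative 4e-09). For 986 rows the reads were multiplied by a common factor so that the length was whole within 0.005 bases. Levels were divided by effective read totals (trimmed mean of log ratios, trims 0.3 and 0.05; Python 3.11.15, scipy 1.17.1). Log2 ratios used a pseudocount of 0.5, which understates low genes. Genes entered at 5 scaled TPM in the higher library, with 2-fold as the limit. The recovery was checked on simulated data built from the same model, so the check cannot show that the deposited values follow it. There 96.5% of rows were exact and the rest were a whole fraction of the true reads. Genes named outside the factors were at most 4 per list and direction, past 2-fold in both states of a comparison. Also named were the small MAF genes, HDC, LYZ, ITGAM, PPBP and GP1BB, singled out after their values were seen. The platelet lineage markers, TRIM28 and the genes most like ZFPM1 were named too. Factors and lists were chosen with earlier results of these data known. A further lineage marker is not reported here. The mouse ChIP-seq peak list was not used here. Alternatives were 2 other scalings, 2 other transcript choices, pseudocounts of 0.1 and 1, and limits of 20 and none. The scalings were plain library totals, which are summed levels per library and not read totals, and equal medians. Reads lack molecular identifiers, so intervals cover counting error only.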

Additional observations from a re-analysis of the deposited data

Results flagged for a closer look

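In all, 3 factors differed in opposite directions in the 2 states of a comparison, each beyond counting error. With 1 library per group these differences were not tested. The share of all genes that did so was not computed, so this count does not set the factors apart. GATA1 was higher with hemin in control cells, at a log2 ratio of 0.14, and lower after knockdown, at -0.34. Its knockdown ratio was 0.19 without hemin and -0.28 with hemin. LDB1 had hemin ratios of 0.62 in control cells and -0.19 after knockdown. TAL1 had knockdown ratios of 0.15 without hemin and -0.040 with hemin, the second of which was 0.06 with plain library totals.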

How the results depend on the processing

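No paired analysis was possible because each group is 1 library. Of 300 factor values under the 6 alternatives that can change a ratio, 280 moved by less than the counting error and 20 by more. Of the values past 2-fold, 0 changed sign. These were only ZFPM1 in both hemin states and GATA2 with hemin. The shifts were too small to turn values so far from 0, so that count is no check. Of the 20, 18 came with plain library totals, among them 17 of the 20 knockdown ratios. The other limits on low values change only which genes enter. With plain library totals the median of all genes went from 0.03 to 0.14 without hemin and from 0.01 to 0.11 with hemin after knockdown, and the factors' ratios moved with it. GATA2 then had -0.99 with hemin, which left 0 factors at least 2-fold lower. Of all genes, 960 were then at least 2-fold higher and 521 lower without hemin, and 823 and 363 with hemin, against 733 and 700, and 653 and 450. Signs changed for 3 of 50 values, none above 0.072 in size with the main settings. They were TAL1 after knockdown with hemin, LMO2 with hemin in the control and the difference between hemin ratios for MYB. Choosing each gene's transcript by reads, the GATA1 to GATA2 ratio was 0.487 in the control with hemin. With transcripts summed it was 0.256 and 0.280 in the knockdown without and with hemin, and 0.132 and 0.160 in the control, because GATA2 has 3 rows that share reads. At the limit of 20, MYB has no value. Counting error was widest for MYB, and counting intervals of ratios also held 0 for KLF1, GFI1B and LMO2.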
